A study of Arabidopsis thaliana with 4 samples.

Results

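The genes described here encode 2 groups of proteins that activate FLC, the MADS-box repressor of flowering in Arabidopsis thaliana. They were chosen by locus code, by a rule that uses no measured value: FRI, FRL1, FES1, SUF4 and FLX of the FRIGIDA complex, and ELF7, ELF8 (also called VIP6), VIP3, VIP4 and VIP5 of the PAF1 complex. Earlier results of these data were known when the genes were chosen. All 10 were present among the 32627 genes measured, and they held 12 of the 37118 transcript models, because FLX and VIP4 had 2 models each. The reference gene table gave the same symbol for 9 of them, and gave none for FLX (AT2G30120), which keeps the name used to select it.

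RNA came from seedlings of the Col-0 background, untreated and raised on soil at 22 °C in long days (16 hours light, 8 hours dark), and taken 13 days after germination. One group was the wild type, labelled as flowering normally. The other carried 35S::JMJ30-HA, labelled as flowering late, in which the 35S promoter of cauliflower mosaic virus, active in most plant tissues, drives an HA-tagged copy of the H3K27 demethylase gene JMJ30. Each group had 2 arrays, described in the labels as biological replicates. Whether seedlings were pooled, and how many transgenic lines were used, is not stated in the labels. Col-0 is itself a limited setting for the FRIGIDA complex, since this accession carries a natural loss-of-function allele of FRI, which all 4 samples share.

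FRI is the scaffold of a transcription activator complex that assembles at the FLC promoter. SUF4, a C2H2 zinc finger protein, binds the DNA there, and FRL1, FES1 and FLX join it as further subunits. In accessions with a functional FRI the complex holds FLC high until winter cold silences it. The PAF1 complex travels with RNA polymerase II during elongation and promotes the H3K4 and H3K36 methylation of active genes. Its Arabidopsis subunits were found through mutants that flower early with low FLC, hence the names EARLY FLOWERING and VERNALIZATION INDEPENDENCE. The comparison asks whether transcripts of these activators differ between the JMJ30 line and the wild type.

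Each value is a normalized fluorescence intensity on a linear scale. Genotypes were compared on the log2 scale with limma over all genes, as the transgenic line minus the wild type with a moderated standard error (SE). Pairs of values are given in the order of replicate 1 and replicate 2. The 2 arrays per genotype limit the precision of every value. The p-values measure only the spread between these samples, with the variance of each gene moderated toward a value pooled over all genes. Median intensity per array was 25.6 to 26.6. Intensities of all genes had 2 modes, at 4.36 and 188, with a valley at 14.3, and a gene under the valley is called near background here. Probe responses differ, so levels are compared between arrays and never between genes. JMJ30 (AT3G20810) read 705 and 567 in wild-type seedlings against 1054 and 721 with the transgene, a log2 difference of 0.46 ± 0.27 (SE) that did not pass the test (adjusted p = 1.0). Model 3 of JMJ30 gave 0.40, whereas the dimmer model 2 gave -0.52, and the labels do not say which probes read the transgene. Markers of green shoot tissue were above the valley for 4 of 4 genes, with summed intensities of 5805 and 6010 in wild-type seedlings against 5223 and 5903 with the transgene. Markers of dividing cells were above it for 3 of 3 genes, and of the shoot apical meristem for 1 of 3 (STM, not WUS or CLV3). None of 3 root, 4 flower or 3 seed markers lay above it. The label seedling was thus borne out for shoot tissue. The 3 root markers (PRP3, NRT2.1 and EXP7) did not show root tissue, and no other root genes were read, so its presence was not settled.

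No FRIGIDA or PAF1 complex gene passed the genotype test (0 of 10, adjusted p = 1.0 for each), where 0% of all 32627 genes were called. At an unadjusted p under 0.05 the count was 0 of 10 members and 974 of all genes (2.99%). With the replicate number as a block it was 0 of 10, beside 6.01% of all genes. Of the 10 genes 4 read higher with the transgene and 6 lower. The share higher over all genes was 49.2%. The median log2 difference of the 10 was -0.017, beside a median of -0.0039 over all genes. The differences ran from -0.28 for FLX to 0.24 for VIP4, a gene whose other transcript model read -0.020. Both genotypes lay above the valley for all 10, which held for 53.7% of all genes. In bulk seedling RNA, fewer cells of a type and less RNA per cell cannot be told apart.

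**Figure D1:**
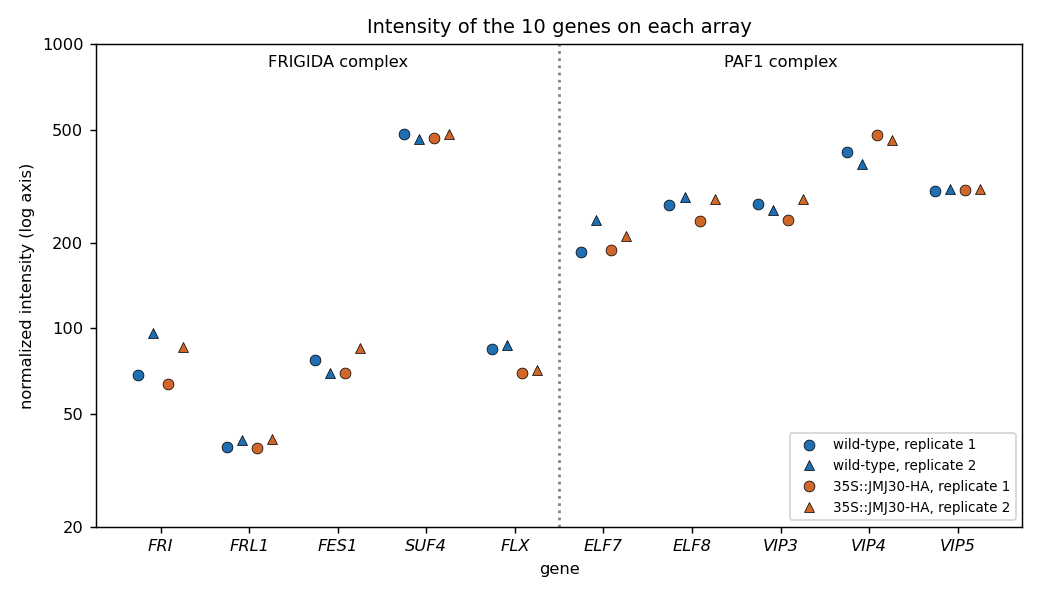
Normalized intensity (log axis) of the 10 genes on each of the 4 arrays, wild type in blue and 35S::JMJ30-HA in orange, with circles for replicate 1 and triangles for replicate 2. FLX reads 84.3 and 87.2 against 69.8 and 71.1, VIP4 (model 2) reads 416 and 380 against 477 and 459, and the genotypes overlap at the other 8 genes. Heights are not comparable between genes.

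In the FRIGIDA complex, FLX, which encodes a coiled-coil protein of the complex, had the largest difference. It read 84.3 and 87.2 in wild-type seedlings against 69.8 and 71.1 with the transgene, means of 85.7 ± 2.09 and 70.5 ± 0.948 (SD, n = 2). Both transgenic arrays lay below both wild-type arrays, as they did for 13.3% of all genes. The log2 difference was -0.28 ± 0.18 (SE), 0.822 of the wild-type level, with a 95% interval from 0.598 to 1.13 of that level before adjustment. It did not pass the test (adjusted p = 1.0). The difference was -0.27 between the arrays of replicate 1 and -0.29 between those of replicate 2.

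FRI (AT4G00650) read 68.3 and 96.2 in wild-type seedlings against 63.6 and 85.8 with the transgene. Replicate 2 was the higher array in both genotypes, and the genotypes overlapped. Their means were 82.2 ± 19.8 and 74.7 ± 15.7 (SD, n = 2), a log2 difference of -0.13 ± 0.27 (SE). The 95% interval from -0.83 to 0.56 was the widest of the 10 genes in this fit, which has no term for replicate number. With the replicate number as a block it was -0.57 to 0.30, and FES1 had the widest interval, from -0.44 to 0.59. Taken within each replicate number, the log2 differences of FRI were -0.10 and -0.17. Without wild-type replicate 2 the difference turned to 0.11, and without transgenic replicate 1 it turned to 0.082.

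FRL1 (AT5G16320), a FRIGIDA-like protein that acts with FRI, read 38.2 and 40.3 in wild-type seedlings against 37.7 and 40.7 with the transgene. The 4 arrays lay close together, and the log2 difference was -0.0026 ± 0.18 (SE), with a 95% interval from -0.47 to 0.47. It turned to 0.027 with median scaling and to 0.013 with quantile normalization. SUF4 (AT1G30970) was as level, at 480 and 464 in wild-type seedlings against 466 and 482 with the transgene. Its log2 difference was 0.0052 ± 0.18 (SE), with a 95% interval from -0.46 to 0.47.

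FES1 (AT2G33835), a CCCH zinc finger protein, read 77.5 and 69.3 in wild-type seedlings against 69.8 and 85.5 with the transgene. The arrays of replicate 1 gave a log2 difference of -0.15 and those of replicate 2 one of 0.30. The log2 difference over both was 0.08 ± 0.21 (SE), with a 95% interval from -0.45 to 0.60. Without wild-type replicate 2 it turned to -0.0050, and without transgenic replicate 2 to -0.070.

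Among the PAF1 complex genes the largest difference was at VIP4 (AT5G61150), the homolog of yeast Leo1. It read 416 and 380 in wild-type seedlings against 477 and 459 with the transgene, means of 398 ± 25.5 and 468 ± 12.8 (SD, n = 2). The transgenic arrays were both above the wild-type ones, as they were for 12.7% of all genes. The log2 difference was 0.24 ± 0.18 (SE), 1.18 times the wild-type level, with a 95% interval from 0.851 to 1.63 times. It did not pass the test (adjusted p = 1.0).

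That difference appeared in 1 of the 2 transcript models of VIP4. Model 2, whose higher mean made it stand for the gene, gave the values above. Model 1 read 397 and 370 in wild-type seedlings against 382 and 374 with the transgene, a log2 difference of -0.020 ± 0.18 (SE) in a fit over all models. The 4 arrays of model 1 overlapped between genotypes. FLX also had 2 models, and its model 1 was near background, at 9.78 and 11.6 in wild-type seedlings against 9.64 and 9.68 with the transgene. Those arrays all lay under the valley, so model 1 gives no direction for FLX. The difference between models of a gene was not tested, and the labels give no probe positions.

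**Figure D2:**
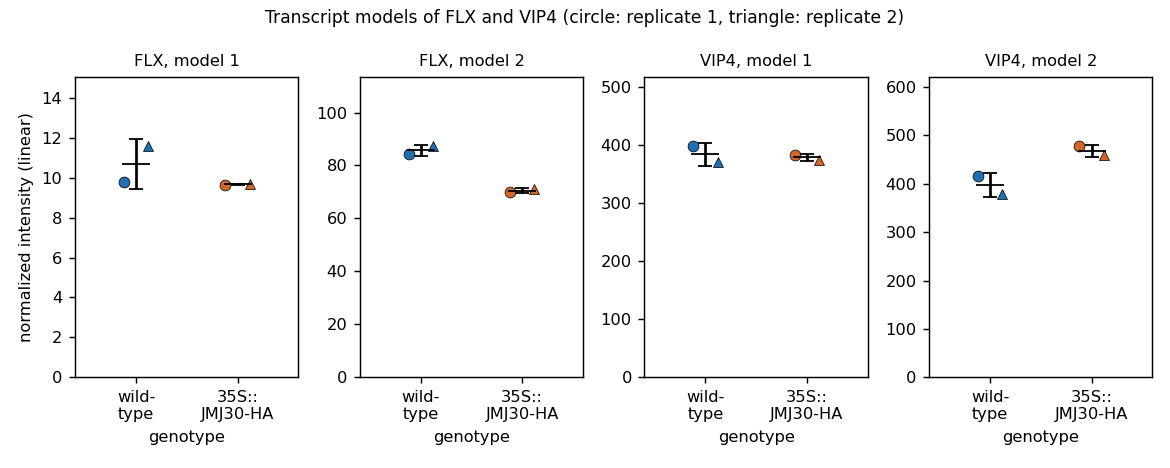
Normalized intensity (linear axis from 0) of both transcript models of FLX and VIP4, with 1 point per array and the mean ± SD of the 2 arrays of each genotype. VIP4 model 2 has a mean of 398 without and 468 with the transgene, and VIP4 model 1 has means of 383 and 378.

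The other 4 subunits showed overlapping genotypes. ELF7 (AT1G79730), the homolog of yeast Paf1, read 186 and 241 in wild-type seedlings against 188 and 212 with the transgene. Its log2 difference was -0.08 ± 0.22 (SE), 0.01 between the arrays of replicate 1 and -0.18 between those of replicate 2. ELF8 (AT2G06210), the homolog of yeast Ctr9, read 271 and 290 in wild-type seedlings against 238 and 284 with the transgene. The log2 differences within replicate numbers were -0.18 and -0.03, and that over all arrays was -0.11 ± 0.20 (SE). Without transgenic replicate 1 the value turned to 0.018 for ELF8 and to 0.0015 for ELF7, and without wild-type replicate 2 that of ELF7 was 0.10.

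VIP3 (AT4G29830), a WD-repeat homolog of Ski8, read 273 and 261 in wild-type seedlings against 241 and 284 with the transgene. The transgenic arrays lay on either side of the wild-type arrays, and the log2 difference was -0.03 ± 0.20 (SE). It turned to 0.0024 without wild-type replicate 1 and to 0.089 without transgenic replicate 1. VIP5 (AT1G61040), the homolog of yeast Rtf1, had the narrowest spread of the 10 genes, at 303 and 309 in wild-type seedlings against 307 and 309 with the transgene. Its log2 difference was 0.0075 ± 0.18 (SE), 1.01 times the wild-type level, with a 95% interval from 0.732 to 1.38 times.

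**Figure D3:**
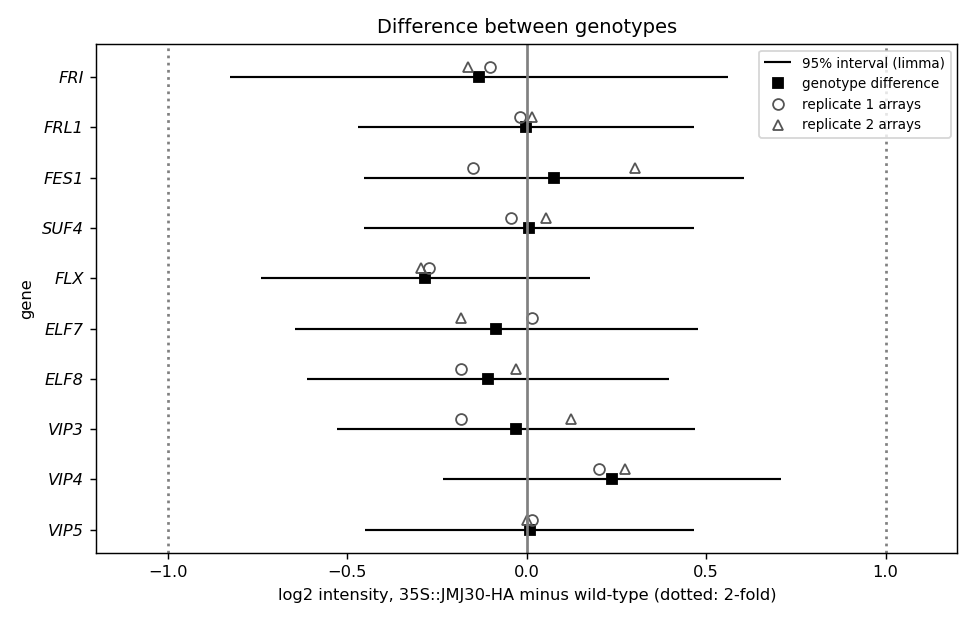
Log2 intensity of 35S::JMJ30-HA minus wild type for each gene, with squares for the difference over 4 arrays, lines for its 95% interval from limma before adjustment, and open symbols for the difference within replicate 1 (circles) and replicate 2 (triangles). All 10 intervals span 0 and lie inside the dotted lines at a 2-fold change.

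These intervals use the moderated SE, which mixes the spread of each gene with a variance pooled over all genes. For VIP5 it was 0.18, against 0.013 in an ordinary linear model, and for FRI it was 0.27 against 0.33. The widths are thus not the precision of each gene alone. For all 10 genes the 95% interval of the genotype difference lay within a 2-fold change either way, as it did for 75.7% of all genes and 87.2% of the 17790 genes above the valley. The lowest bound was -0.83 at FRI and the highest 0.71 at VIP4. For FRL1, SUF4, VIP3 and VIP5 the interval also lay within a 1.5-fold change, which held for 19% of all genes and 29.5% of those above the valley. The intervals are before adjustment and are not limits of detection, since genes were called only after adjustment over all genes. At an unadjusted p under 0.05 in limma stood 974 of all genes, and 0 were called. FLC (AT5G10140), on which these proteins act, read 13.3 and 12.2 in wild-type seedlings against 25.4 and 32.7 with the transgene. Both wild-type arrays lay under the valley, so no fold is given. Both transgenic arrays were above both wild-type arrays, as they were for 12.7% of all genes. The unadjusted limma p was 0.0026, and FLC did not pass the test over all genes (adjusted p = 1.0). Its models 2 and 3 were near background in both genotypes.

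The genotypes did not overlap at 2 of the 10 genes (FLX and VIP4), beside 26% of all genes and 20.6% of genes above the valley. The sign of the difference was the same in both replicate numbers for 4 of the 10 (FRI, FLX, ELF8 and VIP4), beside 50.2% of all genes. Both counts are near or below the share of all genes. Within the FRIGIDA complex 2 of 5 genes read higher and within the PAF1 complex 2 of 5, with median log2 differences of -0.0026 and -0.03. In neither complex did all members lie on the same side of 0.

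Replicate number separated the arrays at some of these genes more than genotype did. In the fit with both terms, FRI was 1.38 times as high in replicate 2 as in replicate 1, a log2 difference of 0.46 ± 0.16 (SE) with a 95% interval from 0.03 to 0.90. The shift was 0.49 without and 0.43 with the transgene. It did not pass the test over all genes (adjusted p = 0.302), where 0.0123% of genes were called. With trend and robust variance settings it did (adjusted p = 0.0473), a setting that called 10.9% of all genes. ELF7 was 1.21 times as high in replicate 2 (log2 difference 0.27 ± 0.17, SE) and ELF8 1.13 times (0.17 ± 0.17, SE), neither past the test. The remaining 7 genes differed by -0.09 to 0.09 between replicate numbers.

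Replicate 2 was above replicate 1 in both genotypes for 6 of the 10 genes, beside 32.3% of all genes. It was below replicate 1 in both for 1 (VIP4), beside 30.1%. These shares were not counted among genes above the valley, where all 10 lay. The 6 shifts ran from 0.49 and 0.43 at FRI down to 0.025 and 0.0093 at VIP5 (wild type and transgenic). The replicate difference exceeded the genotype difference in size for 6 of the 10, beside 62.2% of all genes and 70% of those above the valley. By complex these were 2 of 5 FRIGIDA genes and 4 of 5 PAF1 genes. What arrays of equal number shared is not stated in the labels.

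**Figure D4:**
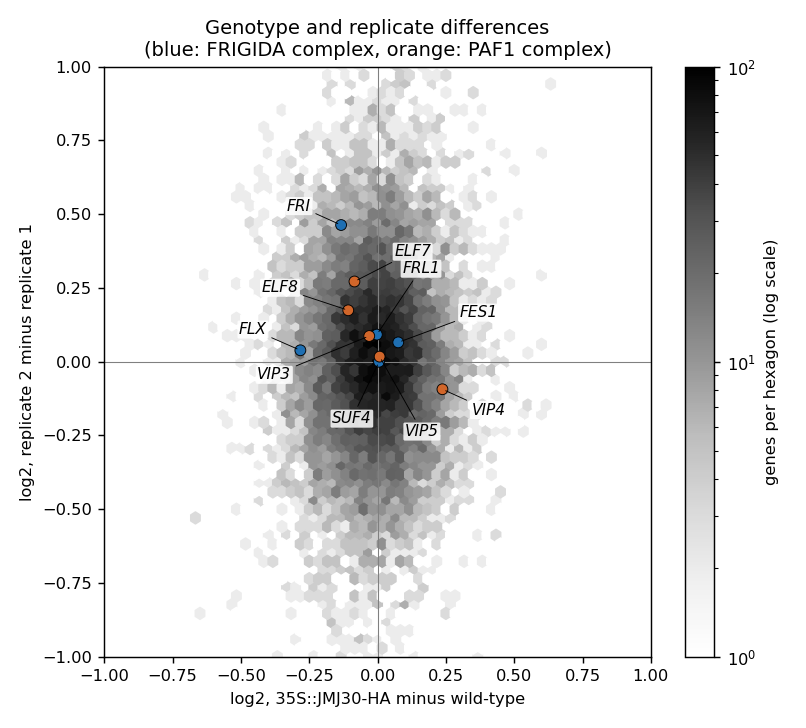
Log2 difference between genotypes (horizontal) against that between replicate numbers (vertical) for the 10 genes, over the 17790 genes above the valley in grey (log colour scale, 549 genes outside the axes not drawn). FRI sits highest, at 0.46 between replicates, and FLX and VIP4 lie farthest to the left and right, at -0.28 and 0.24.

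FRI varied most over the 4 arrays, with an SD of 0.28 on the log2 scale, against 0.01 for VIP5. The 3 genes outside the list whose centred log2 values came closest to FRI over the 4 arrays were AT3G01810, AT3G49650 and AT3G03440, none with a symbol in the reference table. Their root mean square differences from FRI were 0.0064, 0.010 and 0.012. With 4 arrays such likeness is common, and 1009 genes lay within 0.1 of FRI.

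Of the 10 genes, 5 (FLX, FRL1, ELF8, VIP4 and VIP5) overlap no other gene annotated in the reference. FRI overlaps the protein-coding gene AT4G00651, which read 39.1 and 34.5 in wild-type seedlings against 41.3 and 28.7 with the transgene, lower in replicate 2 where FRI was higher. ELF7 overlaps AT1G79740, at 282 and 222 in wild-type seedlings against 274 and 220 with the transgene, again opposite to ELF7 between replicate numbers. FES1 overlaps AT2G33840, at 106 and 120 against 142 and 124, and VIP3 overlaps MTO2, a threonine synthase gene, at 769 and 855 against 889 and 800.4. FRI also overlaps an annotated antisense RNA gene, VIP3 a long non-coding RNA gene and SUF4 a small nucleolar RNA gene, none of them with a value used here. Whether probes of these pairs lie in the shared stretches was not tested.

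Of 29 other genes that act on FLC transcription, 0 passed the genotype test in either direction, 16 read higher and 13 lower, and the median log2 difference was 0.03. Over all genes 0% were called and 49.2% read higher. Intervals stayed within a 2-fold change for 28 of the 29, with SEF the exception, beside 75.7% of all genes and 87.2% of those above the valley. The genotypes did not overlap at 5 of the 29 (FRL2, SPT5-2, SPT16, HTA11 and ASH2R), beside 26% of all genes. FRL2, a relative of FRL1, had the largest difference of the 29. It read 65.1 and 60.3 in wild-type seedlings against 89.5 and 79.9 with the transgene. Both transgenic arrays were higher, as they were for 12.7% of all genes. The log2 difference was 0.43 ± 0.19 (SE), 1.35 times the wild-type level, and did not pass the test (adjusted p = 1.0). FLX4, a relative of FLX, read 24.3 and 28.3 against 25.5 and 27.7.

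Of 5 genes for the PAF1 subunit CDC73 and for other elongation factors, 2 read higher and 3 lower, with a median of -0.05. CDC73 itself read 128 and 121 in wild-type seedlings against 103 and 139 with the transgene. SPT5-2, of the elongation factor SPT4/SPT5, read 690 and 677 against 604 and 623, a log2 difference of -0.16 ± 0.18 (SE). Both transgenic arrays were lower, as they were for 13.3% of all genes. SPT16, a subunit of the histone chaperone FACT, read 335 and 334 against 345 and 403, a log2 difference of 0.15 ± 0.19 (SE).

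The SWR1 complex places the histone variant H2A.Z, and its list held 5 genes that read higher and 2 lower, with a median of 0.05. HTA11, an H2A.Z gene, read 134 and 100.2 in wild-type seedlings against 151 and 144 with the transgene, a log2 difference of 0.35 ± 0.22 (SE). SEF, an SWR1 subunit, read 37.8 and 23.2 against 24.5 and 23.6, a log2 difference of -0.30 ± 0.28 (SE), with wild-type replicate 1 above the other 3 arrays.

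Genes of H3K4 and H3K36 methylation split 4 higher and 3 lower, with a median of 0.07. SDG8, the H3K36 methyltransferase gene also called EFS, read 154 and 195 in wild-type seedlings against 161 and 223 with the transgene, a log2 difference of 0.13 ± 0.25 (SE). RBL, of the COMPASS-like complex, read 232 and 266 against 253 and 276. All 7 of this list were higher in replicate 2 when the genotypes were averaged, with a median of 0.16, where 16718 of 32627 genes were. For ATX2, ASH2R and ATXR7 the direction differed between the genotypes. In H2B monoubiquitination 1 gene read higher and 4 lower, with a median of -0.09, including the ubiquitin ligase gene HUB2 at 202 and 227 against 185 and 202, and the deubiquitinase gene UBP26 at 207 and 188 against 191 and 244. CBP20, of the nuclear cap-binding complex, read 45.5 and 39.8 against 29.9 and 43.5. HUA2 read 332 and 262 against 314 and 363.

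**Figure D5:**
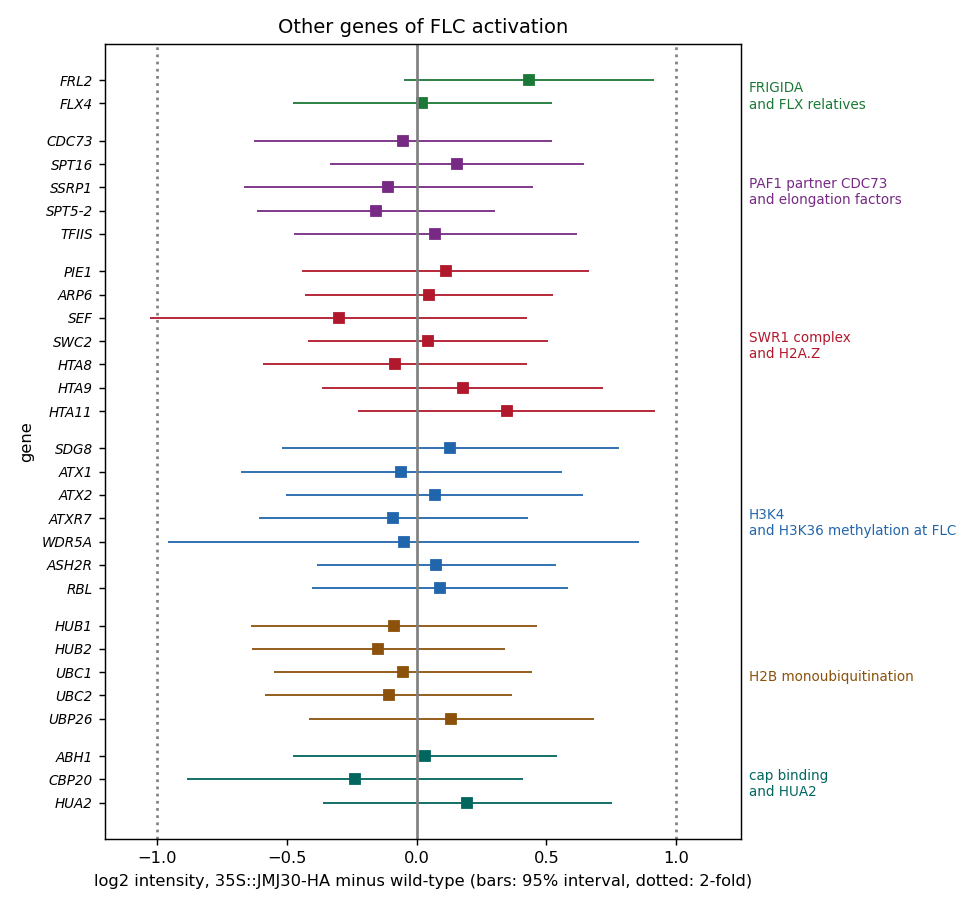
Log2 intensity of 35S::JMJ30-HA minus wild type (squares) with the 95% interval before adjustment (lines) for 29 other genes of FLC activation, coloured by group. FRL2 lies farthest to the right at 0.43, and SEF farthest to the left at -0.30 with the only interval that crosses a 2-fold change (dotted).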

How the data were processed

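Per the labels, RNA of 4 samples was hybridised to 1-colour NimbleGen arrays after Cy3 labelling. The deposited values are normalized intensity values, 1 per transcript model; the submitters' processing notes name RMA, with no version or settings. They were taken as linear because they run from 1.50 to 4400, and log2 was computed with no pseudocount. A gene took the value of its brightest model, by mean log2 intensity (3602 of 32627 genes had several models). The NCBI table of TAIR10.1 genes gave the symbols and held 31993 locus codes (98.1%). The deposited table names no build; coordinates are therefore left out, and only names and gene overlaps were taken from the reference.

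The genotype test was limma 3.58.1 under R 4.3.3 (lmFit then eBayes, genotype as the only term, two-sided, Benjamini-Hochberg adjustment over all genes, called at an adjusted p below 0.05). Replicate numbers were compared with both terms in the fit. The code was tested on simulated data. Plots used matplotlib 3.10.9. No sequences are shown, since none were used here.

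All 10 members were named, with JMJ30 and FLC. In each group of the wider list called genes, or else the 2 with the largest absolute moderated t, were named, and CDC73 was added after its values were seen. Of 38 entries in that list, 29 whose name matched a symbol or synonym in the gene table were used. For FRI, the member with the largest SD, the 3 genes most like it were named. The members and lists were chosen with earlier results of these data known.

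Both genotypes carry replicate numbers 1 and 2, and the design text speaks of sets that hold both genotypes, which was read as pairing equal numbers. The text allows another reading. Deviations from the genotype means of same-numbered arrays correlated at 0.42 across all genes and 0.68 across genes above the valley; genes are not independent, so this is a description. Alternatives covered variance moderation, transcript model, pseudocount, scaling, a filter, the replicate block, the threshold and leaving out arrays.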

Additional observations from a re-analysis of the deposited data

How the results depend on the processing

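No member was called between genotypes under any of the alternatives run. The replicate block called 0 members and 0 of all genes, and the pairing changed no call; its lowest adjusted p among members was 0.900 (FLX, log2 difference -0.28). Over all genes the count moved from 0 to 1 with trend and robust settings, to 1 at an adjusted p below 0.10, and to 3 with the replicate block on genes above the valley, an alternative chosen after seeing the data, as was the fit over all transcript models. Without each array in turn the count was 0 to 0, for members and for all genes. Such a fit leaves 1 replicate number with a single genotype and assumes that a lone array varies like the others.

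FLX ran from -0.31 to -0.14, the smallest size coming from the lowest-numbered model, which lay under the valley on all arrays. VIP4 was 0.11 with the mean of all models and reversed to -0.020 with the lowest-numbered model. FRL1 reversed to 0.027 with median scaling and 0.013 with quantile normalization. Without each array in turn the genotype difference ran from -0.38 to 0.11 for FRI, -0.057 to 0.052 for FRL1, -0.070 to 0.22 for FES1, -0.019 to 0.030 for SUF4, -0.31 to -0.26 for FLX, -0.27 to 0.10 for ELF7, -0.23 to 0.018 for ELF8, -0.15 to 0.089 for VIP3, 0.17 to 0.30 for VIP4 and -0.0051 to 0.020 for VIP5. The other alternatives reversed no member.

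Between replicate numbers the count of genes called was 4, and 87 with replicate number as the only term, 3553 with trend and robust settings, 1825 on genes above the valley and 0 with the mean of all models. FRI was the 1 member called with trend and robust settings (adjusted p = 0.0473), and its adjusted p was 0.0718 to 0.302 otherwise. The cause of these moves was not tested. The data used here hold no background measurement per probe set. With 2 arrays per genotype, the width of every limma interval also rests on a variance pooled over all genes.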
